A study of Mus musculus with 6 samples.

Results

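Collagen chains are the polypeptides that wind around each other into the collagen triple helix, the main building unit of the extracellular matrix. Collagen chain genes were taken as the listed genes whose symbol is Col, a type number, the letter a and a chain number, which gave 44 of the 54658 genes listed. Of these, 43 had 10 or more counts in 3 or more of the 6 libraries and were tested. The other, Col10a1, the short chain of growth plate cartilage, had 0 counts in every library, and 100% of its span lies within the gene Nt5dc1, where reads shared by annotated genes were not counted. The member Col9a1 and the member Col8a2 reached 10 counts in 2 libraries of each group, so no member passed through 1 group alone.

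RNA came from the nucleus accumbens, the ventral part of the striatum, of C57BL6 male mice bought as adults of 8 weeks. The series concerns Gas5, a long noncoding RNA, and its role in cocaine action. The 3 Gas5 samples had received Gas5 with EGFP in a herpes simplex virus p1005+ vector, and the 3 GFP samples had received EGFP alone in the same vector. All 6 samples were therefore injected and carried virus and EGFP, no uninjected group is among the samples used here, and no cocaine treatment is given in the labels. The tissue was frozen accumbens extracted whole, so infected and uninfected cells were measured together, and the promoter that drives the insert is not given in the sources used here. Ribosomal RNA was depleted from total RNA and reads were counted over whole genes with their introns. The labels do not give how many animals went into each sample, so the p-values describe the variation among the 6 libraries, which may be technical.

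Fibrillar collagens build the banded fibrils of connective tissue, and fibril-associated collagens with interrupted helices, called FACIT, sit on the surface of those fibrils. Type IV chains form the sheet of basement membranes, which in brain surrounds blood vessels and lies under the meninges, and type VI chains form beaded filaments next to them. In brain, most fibrillar collagen is made by fibroblasts of the meninges and of larger vessels, and type IV collagen by endothelial cells and pericytes. Neurons also make some collagens, among them the transmembrane collagen Col25a1 and the FACIT Col19a1, which in mice is needed by interneurons to build inhibitory synapses.

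Total counts were 41195696, 42524874 and 38605056 in Gas5 libraries A, B and C, against 56081575, 39766777 and 32359052 in GFP libraries A, B and C. Gas5 itself, read as a check of the labels, stood at 22.6, 23.3 and 23.6 CPM, the count scaled to library size, in Gas5 libraries and 18.6, 16.5 and 18.3 CPM in GFP libraries, a 1.30-fold difference (log2 difference 0.38, SE 0.0634, edgeR adjusted p = 0.0164). Its edgeR adjusted p was 0.0733 without GFP B and 0.0689 without GFP C. The check is a weak one, as 13.7% of all genes tested were also higher in Gas5 libraries without overlap. These counts do not separate RNA of the vector from RNA of the mouse gene. Markers of cortical excitatory neurons stood apart between the groups, with a mean log2 CPM over 12 genes of 2.60, 3.21 and 3.41 in Gas5 libraries and 4.29, 4.72 and 4.76 in GFP libraries. Their summed level was 795 to 923 CPM in Gas5 libraries and 982 to 1030 CPM in GFP libraries, and no marker on that list was at 0. The largest part of that sum was Foxp2, which striatal neurons also express, at 609, 548 and 680 CPM in Gas5 libraries and 569, 505 and 440 CPM in GFP libraries. Of the 12 genes, 8 were lower in Gas5 libraries and 0 higher at edgeR adjusted p under 0.05, beside 3.94% of all genes tested that were lower. Among the 8 was the vesicular glutamate transporter Slc17a7, at 5.75, 25.2 and 42.5 CPM in Gas5 libraries, against 153, 217 and 247 CPM in GFP libraries. Library Gas5 A was the highest of the 6 libraries for 16 of the 43 tested collagen chain genes, or 37.2%, and for 25.3% of all genes tested. In bulk tissue, fewer cells of a type and less RNA per cell cannot be told apart.

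Across the family, 5 of the 43 tested members passed the test (edgeR adjusted p under 0.05), which is 11.6%, beside 5.40% of all 17693 genes tested. Without GFP B or without GFP C only 1 member, Col24a1, passed, and of all genes 3 passed higher and 105 lower without GFP B, and 4 higher and 88 lower without GFP C, against 259 and 697 with all 6 libraries. Col6a1 and Col6a5, chains of the beaded filament collagen, were higher in Gas5 libraries. Col24a1, a fibrillar chain, Col19a1, a FACIT chain, and Col26a1, a chain with an EMI domain, were lower. The 2 members called higher stand beside 1.46% of all genes called higher, and the 3 members called lower beside 3.94% called lower, and the difference of these shares was not tested. The abundant basement membrane chains Col4a1 and Col4a2 differed by 0.05 each on the log2 scale, and total collagen counts were 0.0621%, 0.0558% and 0.0559% of all counts in Gas5 libraries and 0.054%, 0.0539% and 0.0567% in GFP libraries. The median log2 difference of the 43 members was 0.14, with 24 positive and 19 negative, beside 0.02 for all genes tested, and without Gas5 A the members' median was 0.01. At unadjusted p under 0.05 stood 12 members, or 27.9%, beside 21.4% of all genes. The values of the 3 libraries of each group did not overlap for 9 members higher in Gas5 libraries, or 20.9%, beside 13.7% of all genes, and for 4 members lower, or 9.3%, beside 13.9% of all genes.

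**Figure D1:**
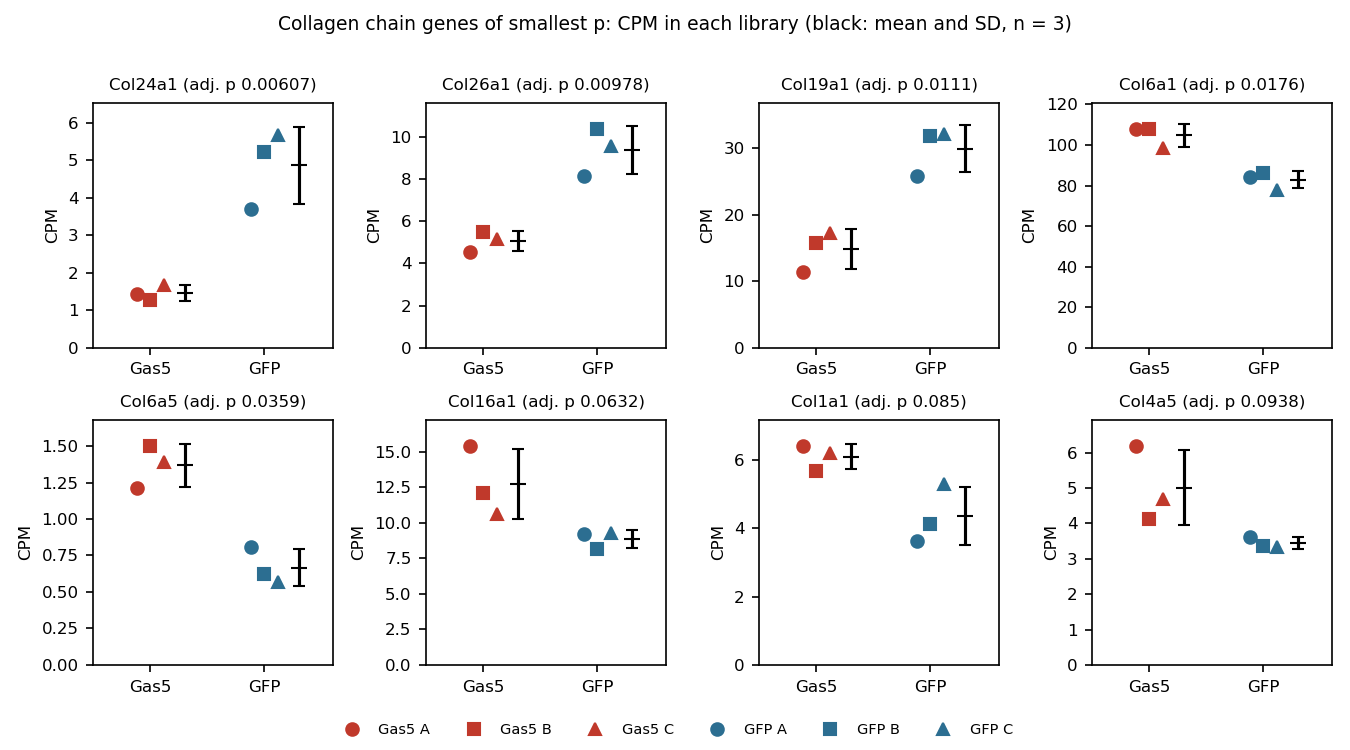
CPM of the 8 collagen chain genes of smallest p in each library, with Gas5 libraries left of GFP libraries in each panel, symbols for libraries A, B and C, and the group mean with its SD (n = 3) in black. Col24a1, Col26a1 and Col19a1 lie lower in all 3 Gas5 libraries than in any GFP library, and the other 5 genes lie higher, although Col16a1, Col1a1 and Col4a5 did not pass the threshold of 0.05.

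The letters upstream of the genes that passed are shown as the stretch next to their start, read from RefSeq on build GRCm38.p6, 5′ to 3′, ending at the last base before the start of the counted gene. The RefSeq start, from which the searched windows are counted, is that of the counted gene for Col24a1 and Col6a5, and lies 35 bases inside it for Col19a1 and 124 bases inside it for Col6a1. Of the 43 tested members, 34 had a promoter in that table, and Col26a1 was without an entry. Capitals mark matches to 6 motifs searched on both strands in 300 bases, 250 before the start and 50 after it. The motifs were TGACGTCA (the cyclic AMP response element), CAGATG (an E-box of the Neurod type), CAGCTG (an E-box with a GC core), GGGCGG (the GC box), CCAAT (the CCAAT box) and TATAAA (the TATA box). No string contains another, and TGACGTCA and CAGCTG read the same on both strands.
Col24a1 (chr3:145292222-145292471, plus strand): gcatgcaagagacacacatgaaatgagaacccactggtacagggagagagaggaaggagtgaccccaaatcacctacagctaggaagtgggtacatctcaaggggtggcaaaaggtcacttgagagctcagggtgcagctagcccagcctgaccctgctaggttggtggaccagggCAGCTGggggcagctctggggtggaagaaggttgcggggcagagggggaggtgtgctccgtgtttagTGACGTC
Col19a1 (chr1:24587473-24587687, minus strand): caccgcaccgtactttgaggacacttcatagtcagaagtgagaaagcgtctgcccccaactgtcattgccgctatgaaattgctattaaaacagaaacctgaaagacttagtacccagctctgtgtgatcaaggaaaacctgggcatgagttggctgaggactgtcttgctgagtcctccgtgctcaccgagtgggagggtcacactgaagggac
Col6a1 (chr10:76726169-76726294, minus strand): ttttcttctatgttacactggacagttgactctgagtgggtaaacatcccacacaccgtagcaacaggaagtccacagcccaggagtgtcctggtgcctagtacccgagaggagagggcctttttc
Col6a5 (chr9:105960644-105960893, minus strand): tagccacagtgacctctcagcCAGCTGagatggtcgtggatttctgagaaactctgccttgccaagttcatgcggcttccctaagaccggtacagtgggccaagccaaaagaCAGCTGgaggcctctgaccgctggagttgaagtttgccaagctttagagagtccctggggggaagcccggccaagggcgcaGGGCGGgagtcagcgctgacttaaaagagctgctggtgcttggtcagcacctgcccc

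Of these 4, Col24a1 holds TGACGTCA at its start, with 7 bases before the start and the last base in the gene, and it is the only member of the 34 with that string, which 1.8% of 32544 promoters of the same length hold. It also holds CAGCTG with its first base at -74 from the start. Col6a5 holds CAGCTG with first bases at -229 and -138 and GGGCGG at -57. In the stretches printed for Col19a1 and Col6a1 none of the strings was found. Over the family, GGGCGG was found in 22 of the 34 members, beside 35.9% of all promoters, CCAAT in 13, beside 37.4%, and CAGCTG in 7, beside 16.4%. CAGATG was found in 4 members, beside 17.1% of all promoters, and TATAAA in 4, beside 13.6%. A member with several promoters was counted if any of them held the string, so these counts and the shares per promoter are unlike measures. A match is a description of letters and not a bound site.

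The counts of each class stand beside 1.46% of all genes tested called higher, 3.94% called lower and 21.4% at unadjusted p under 0.05 by edgeR. Among fibrillar chains, 1 of 11 was lower, 0 were higher, and the class median was 0.32 on the log2 scale. Col24a1, a minor fibrillar chain known from developing bone and cornea of mice, has its gene on chromosome 3 from 145292472 to 145552011, and exons make up 2.94% of that span. It had 62, 54 and 65 reads in Gas5 libraries, against 205, 201 and 180 reads in GFP libraries. Scaled to depth this was 1.44, 1.26 and 1.68 CPM in Gas5 libraries and 3.69, 5.21 and 5.67 CPM in GFP libraries. The groups did not overlap, and the highest Gas5 library held less than the lowest GFP library. Col24a1 was thus 3.30-fold lower in Gas5 libraries (log2 difference -1.72, SE 0.199, edgeR adjusted p = 0.00607), the strongest call of the family at rank 47 of all 17693 genes by p. It kept an edgeR adjusted p of 0.0397 or less when any library was left out.

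The major fibrillar chains did not pass. Col1a1, the alpha 1 chain of type I collagen, stood at 6.40, 5.68 and 6.19 CPM in Gas5 libraries and 3.63, 4.12 and 5.29 CPM in GFP libraries, without overlap. Its log2 difference was 0.50 (SE 0.143, edgeR adjusted p = 0.0850). Its partner Col1a2 stood at 15.0, 7.62 and 8.10 CPM in Gas5 libraries and 6.75, 5.73 and 8.66 CPM in GFP libraries, so the groups overlapped and library Gas5 A stood far above the other 5. Col3a1, the chain of type III collagen of vessel walls, stood at 2.9, 2.01 and 2.94 CPM in Gas5 libraries and 1.71, 1.22 and 1.95 CPM in GFP libraries, with a log2 difference of 0.69 (SE 0.221, edgeR adjusted p = 0.116). Col5a3, a chain of type V collagen, which starts fibrils, stood at 3.69, 2.73 and 2.14 CPM in Gas5 libraries and 1.62, 2.13 and 1.54 CPM in GFP libraries, with a log2 difference of 0.70 (SE 0.226, edgeR adjusted p = 0.117). Every Gas5 library was above every GFP library for both genes, although Gas5 C and GFP B almost touched for Col5a3. Col5a2 repeated the pattern of Col1a2, at 4.5 CPM in Gas5 A, 2.22 and 2.48 CPM in Gas5 B and C, and 2.05 to 2.52 CPM in GFP libraries. The other 5 chains of the class, Col5a1, Col11a1, Col11a2, Col2a1 and Col27a1, had log2 differences between -0.20 for Col11a2 and 0.32 for Col11a1, and none passed.

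Of the 9 FACIT chains, 1 was lower and 0 higher, and the class median was -0.01. Col19a1 lies on chromosome 1 from 24261890 to 24587472, with exons making up 2.12% of the span. It had 493, 675 and 672 reads in Gas5 libraries, against 1437, 1232 and 1020 reads in GFP libraries, which is 11.4, 15.8 and 17.3 CPM in Gas5 libraries and 25.9, 31.9 and 32.1 CPM in GFP libraries. No Gas5 library reached the lowest GFP library. The fall was 2.02-fold (log2 difference -1.01, SE 0.148, edgeR adjusted p = 0.0111). Without GFP B the log2 difference was -0.96 at edgeR adjusted p = 0.0614, and without GFP C it was -0.96 at adjusted p = 0.0631. The neighbouring FACIT gene Col9a1, which ends 9205 bases from the end of Col19a1 on the other strand, had 6 to 18 reads in Gas5 libraries and 8 to 19 in GFP libraries, and a log2 difference of -0.01.

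Col16a1, a FACIT of skin and cartilage matrix, had the next smallest p of its class. It stood at 15.4, 12.1 and 10.6 CPM in Gas5 libraries and 9.20, 8.12 and 9.29 CPM in GFP libraries, with no overlap. The log2 difference was 0.52 (SE 0.134, edgeR adjusted p = 0.0632), just short of the threshold. Col12a1, the FACIT of tendon and fascia, showed the widest spread among libraries of the better counted FACIT chains, at 11.6, 6.19 and 6.01 CPM in Gas5 libraries and 5.87, 9.93 and 12.6 CPM in GFP libraries, which overlapped fully. Col14a1, found on interstitial fibrils, stood at 5.87, 2.76 and 5.11 CPM in Gas5 libraries and 3.98, 2.93 and 2.71 CPM in GFP libraries. The remaining chains, Col9a2, Col9a3, Col20a1 and Col22a1, had log2 differences between -0.59 for Col22a1 and 0.20 for Col9a2 and Col9a3, and none passed.

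Of the 6 chains of type IV collagen none passed the test in either direction, with 1 at unadjusted p under 0.05 by edgeR, and the class median was 0.18. Col4a1 and Col4a2, which together make the basement membrane of vessels, were among the best measured members. Col4a1 stood at 40.6, 41.2 and 38.4 CPM in Gas5 libraries and 40.7, 35.5 and 39.8 CPM in GFP libraries, and Col4a2 at 57.1, 62.1 and 53.7 CPM in Gas5 libraries and 52.8, 56.1 and 58.8 CPM in GFP libraries. Both overlapped between the groups, with log2 differences of 0.05 (SE 0.0619 for Col4a1 and 0.0648 for Col4a2). The pair lies head to head on chromosome 8 with 22 bases shared. Other genes cover 23.7% of the exon bases of Col4a1 and 16.6% of those of Col4a2, where reads were not counted. Col4a5, a chain of the kidney and skin basement membrane on chromosome X, stood at 6.19, 4.14 and 4.70 CPM in Gas5 libraries and 3.63, 3.37 and 3.34 CPM in GFP libraries, without overlap. Its log2 difference was 0.54 (SE 0.158, edgeR adjusted p = 0.0938). Its head to head neighbour Col4a6, 1308 bases away, stood at 0.841 to 1.72 CPM in Gas5 libraries and 0.959 to 1.10 CPM in GFP libraries. Col4a4 stood at 1.30, 1.43 and 1.06 CPM in Gas5 libraries and 0.936, 0.908 and 1.17 CPM in GFP libraries, which overlapped (log2 difference 0.34, SE 0.205, edgeR adjusted p = 0.377). Its head to head neighbour Col4a3, 71 bases away, stood at 0.444 to 0.742 CPM in Gas5 libraries and 0.504 to 0.846 CPM in GFP libraries. Other genes cover 22.4% of the span of Col4a3 and 50% of its exon bases, where reads were not counted.

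Of the 6 chains of the beaded filament class, 2 were higher and 0 lower, beside 1.46% and 3.94% of all genes, and the median was 0.16. Col6a1, the alpha 1 chain that every type VI molecule needs, lies on chromosome 10 from 76708792 to 76726168 and had the highest level of the family per length, at 5.40 CPM per kb of counted span, where the family median was 0.0517 and the next gene, Col11a2, was at 0.826. Exons make up 25.2% of the span of Col6a1, against 2.12% for Col19a1, 2.94% for Col24a1 and 5.78% for Col26a1. A level per counted span also carries that share, so it does not rank the genes by transcripts. Col6a1 had 4655, 4636 and 3807 reads in Gas5 libraries, against 4687, 3316 and 2478 reads in GFP libraries. Scaled to depth, the level was 108, 108 and 98.3 CPM in Gas5 libraries and 84.3, 86.0 and 78.0 CPM in GFP libraries. Every Gas5 library stood above every GFP library, by a small margin that repeated closely, 1.27-fold (log2 difference 0.34, SE 0.0577, edgeR adjusted p = 0.0176). Without GFP B the log2 difference was 0.37 at edgeR adjusted p = 0.0679, and without GFP C it was 0.30 at adjusted p = 0.0895.

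Col6a5, a type VI chain that can take the place of the alpha 3 chain, was scarce. It lies on chromosome 9 from 105856078 to 105960643 and had 52, 64 and 54 reads in Gas5 libraries, against 45, 24 and 18 reads in GFP libraries. This was 1.21, 1.5 and 1.39 CPM in Gas5 libraries and 0.810, 0.622 and 0.567 CPM in GFP libraries, without overlap. The difference was 2.0-fold (log2 difference 1.0, SE 0.216, edgeR adjusted p = 0.0359). It was the least stable of the 5 calls, since the edgeR adjusted p was 0.0726 without Gas5 B, 0.0779 without Gas5 C, 0.15 without GFP B and 0.141 without GFP C, with log2 differences of 0.91 to 0.98 in these 4 fits. Its neighbours on the same strand, Col6a6 at 27917 bases and Col6a4 at 28810 bases, had log2 differences of -0.03 (edgeR adjusted p = 0.951) and 0.35 (adjusted p = 0.245). Col6a2 stood at 7.28, 9.47 and 6.63 CPM in Gas5 libraries and 7.31, 9.65 and 9.35 CPM in GFP libraries, and Col6a3 at 2.20, 2.62 and 2.81 CPM in Gas5 libraries and 2.54, 2.72 and 3.53 CPM in GFP libraries. These partners of Col6a1 in the type VI molecule overlapped between the groups, with log2 differences of -0.16 and -0.19.

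Chains of a shared molecule were compared as ratios of read counts within a library, for 10 pairs of partners. A ratio of counts also carries the lengths of the 2 genes, so it is read between groups and not as a ratio of molecules. For Col6a1 over Col6a3 the ratio was 49, 41.4 and 34.9 in Gas5 libraries and 33.2, 31.6 and 22.1 in GFP libraries, the only pair of the 10 without overlap (difference of mean log2 ratios 0.54, exact permutation p = 0.1, 2-sided, adjusted p = 0.5 over the 10 pairs). With 3 libraries a group, 0.1 is the smallest p this test can give. For Col6a1 over Col6a2 the ratio was 14.8, 11.4 and 14.8 in Gas5 libraries and 11.5, 8.91 and 8.34 in GFP libraries, which overlapped between Gas5 B and GFP A (difference 0.52, exact permutation p = 0.2). Col4a1 over Col4a2 was 0.71, 0.663 and 0.715 in Gas5 libraries and 0.771, 0.633 and 0.677 in GFP libraries, a difference of 0.01. Col1a1 over Col1a2 also differed by 0.01, at 0.426, 0.745 and 0.764 in Gas5 libraries and 0.539, 0.719 and 0.611 in GFP libraries, with the lowest ratio in Gas5 A. The other 6 pairs had differences between -0.37 for Col4a3 over Col4a4 and 0.54 for Col11a1 over Col11a2, and their groups overlapped.

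**Figure D2:**
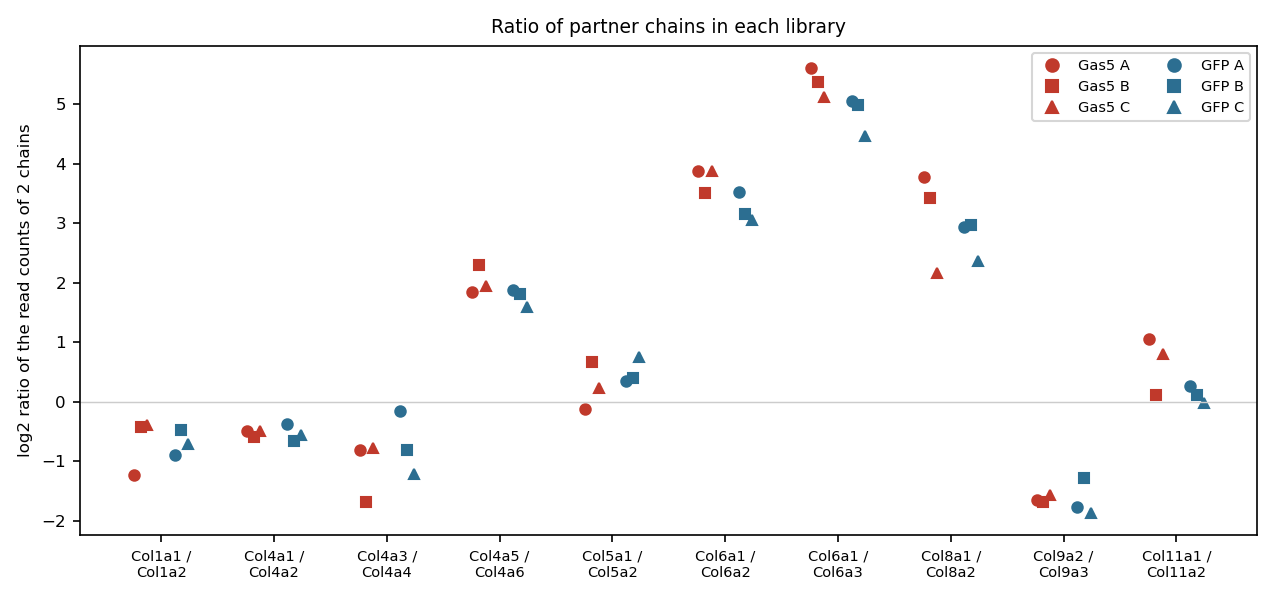
Log2 ratio of the read counts of partner chains in each library, for 10 pairs along the horizontal axis, with Gas5 libraries left of GFP libraries in each pair. Col6a1 over Col6a3 is the pair whose groups do not overlap, at ratios of 34.9 to 49 in Gas5 libraries and 22.1 to 33.2 in GFP libraries.

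Of the short chain network collagens, Col8a1 and Col8a2 of vessel walls and the cornea were tested and none passed, with 0 at unadjusted p under 0.05 by edgeR. Col8a1 stood at 3.2, 1.0 and 1.86 CPM in Gas5 libraries and 1.8, 1.63 and 1.95 CPM in GFP libraries, so the Gas5 libraries held both the highest and the lowest value (log2 difference 0.18, SE 0.355, edgeR adjusted p = 0.819). Its log2 difference was -0.33 without Gas5 A. Col8a2 had 0.0935 to 0.413 CPM in Gas5 libraries and 0.207 to 0.378 CPM in GFP libraries (log2 difference -0.13, SE 0.510, edgeR adjusted p = 0.912), and at this depth no direction could be read. Its log2 difference was 0.27 without Gas5 B and 0.12 without GFP C.

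None of the 4 transmembrane collagens and neither of the 2 multiplexins passed, with 0 and 1 at unadjusted p under 0.05 by edgeR. Col25a1, a neuronal membrane collagen found in amyloid plaques, was the most counted member, at 23.8% of collagen reads on average in Gas5 libraries and 26.4% in GFP libraries. It stood at 142, 125 and 139 CPM in Gas5 libraries and 140, 151 and 151 CPM in GFP libraries, with overlap (log2 difference -0.13, SE 0.0606, edgeR adjusted p = 0.278). Col17a1, the hemidesmosome collagen of skin, stood at 2.94, 3.16 and 3.54 CPM in Gas5 libraries and 2.72, 2.75 and 2.65 CPM in GFP libraries, without overlap (log2 difference 0.25, SE 0.126, edgeR adjusted p = 0.304). Col13a1, a collagen of the neuromuscular junction, had a log2 difference of -0.40, and Col23a1 of -0.07. Col18a1, the multiplexin that holds endostatin at its end, stood at 3.59, 3.16 and 3.12 CPM in Gas5 libraries and 2.65, 2.23 and 2.80 CPM in GFP libraries. Its groups did not overlap (log2 difference 0.36, SE 0.138, edgeR adjusted p = 0.172), and other genes cover 33.5% of its exon bases, where reads were not counted. Col15a1, the multiplexin of vessel basement membranes, stood at 4.31, 4.25 and 5.78 CPM in Gas5 libraries and 5.74, 6.40 and 5.13 CPM in GFP libraries, with overlap (log2 difference -0.27, SE 0.146, edgeR adjusted p = 0.324).

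The 3 members outside these classes were Col7a1 of anchoring fibrils, Col26a1 and Col28a1, of which 1 was lower and 0 higher. Col26a1, first described in testis and ovary of mice, lies on chromosome 5 from 136741759 to 136883209, and exons make up 5.78% of the span. It had 196, 235 and 200 reads in Gas5 libraries, against 453, 402 and 304 reads in GFP libraries. The scaled level was 4.54, 5.49 and 5.16 CPM in Gas5 libraries and 8.15, 10.4 and 9.57 CPM in GFP libraries. The groups were well apart, and the fall was 1.85-fold (log2 difference -0.88, SE 0.12, edgeR adjusted p = 0.00978). Without GFP B the log2 difference was -0.80 at edgeR adjusted p = 0.0501, and without GFP C it was -0.87 at adjusted p = 0.0541. Col28a1, a chain of peripheral nerve, stood at 2.60, 1.87 and 1.5 CPM in Gas5 libraries and 1.71, 1.19 and 1.10 CPM in GFP libraries, with overlap (log2 difference 0.55, SE 0.256, edgeR adjusted p = 0.259). Col7a1 had a log2 difference of -0.23.

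**Figure D3:**
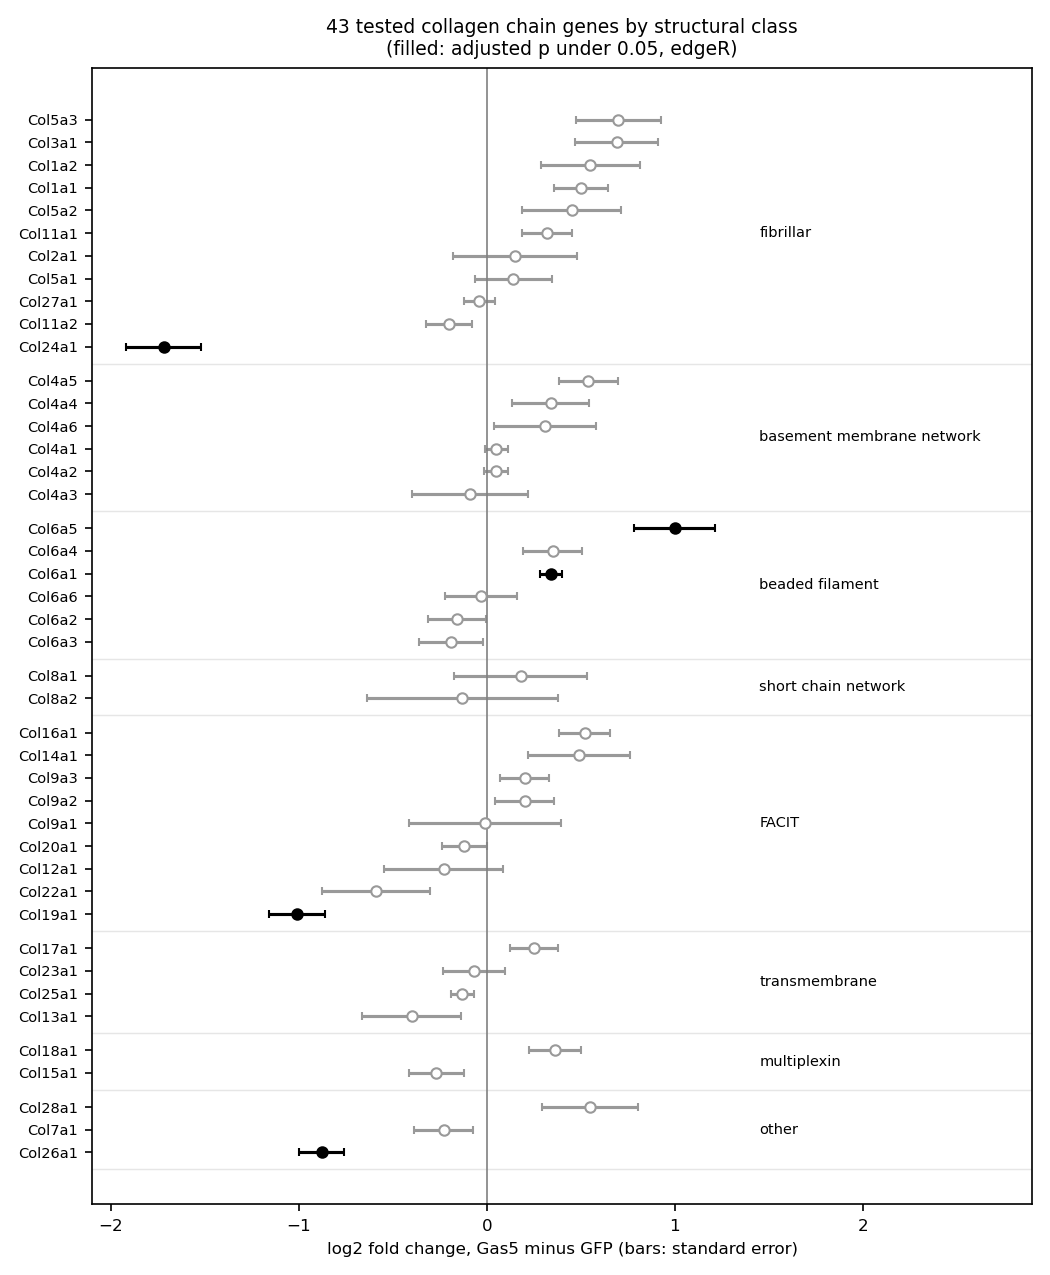
Log2 difference of each of the 43 tested collagen chain genes, Gas5 minus GFP, with its standard error as a bar, grouped by structural class. Filled points passed edgeR adjusted p 0.05, and they are Col24a1, Col19a1 and Col26a1 on the lower side and Col6a1 and Col6a5 on the higher side.

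The proteins that make, trim and bind collagen were read from the same fit. Of all genes tested, 1.46% were called higher, 3.94% were called lower and 21.4% were at unadjusted p under 0.05 by edgeR. Of 22 enzymes and chaperones of collagen folding and crosslinking, 0 passed by edgeR in either direction, with 8 at unadjusted p under 0.05 and a median of 0.10 on the log2 scale. P4ha1, a prolyl 4-hydroxylase subunit that stabilises the helix, stood at 72.8, 73.8 and 85.1 CPM in Gas5 libraries and 89.6, 93.1 and 104 CPM in GFP libraries (log2 difference -0.31, edgeR adjusted p = 0.0579). Colgalt2, a collagen galactosyltransferase, stood at 6.68, 8.69 and 8.59 CPM in Gas5 libraries and 9.61, 11.8 and 14.3 CPM in GFP libraries (log2 difference -0.57, edgeR adjusted p = 0.0771). Both were without overlap and short of the threshold.

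Of 14 tested genes of procollagen processing and turnover, 1 was higher and 1 lower, beside 1.46% and 3.94% of all genes. Both encode proteases that remove the amino-terminal propeptide of procollagens. Adamts14 was scarce, at 0.997, 0.608 and 0.826 CPM in Gas5 libraries and 0.252, 0.311 and 0.220 CPM in GFP libraries (log2 difference 1.62, SE 0.299, edgeR adjusted p = 0.0222). Its adjusted p was 0.0540 without Gas5 A and, with the GFP libraries A, B and C left out in turn, 0.0574, 0.0807 and 0.107. Adamts2 stood at 14.7, 11.6 and 16.4 CPM in Gas5 libraries and 21.5, 28.7 and 30.0 CPM in GFP libraries (log2 difference -0.91, SE 0.151, edgeR adjusted p = 0.0163), and its adjusted p was 0.0807 without GFP B and 0.0814 without GFP C. The groups overlapped for neither gene. The list median was -0.00.

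Of 10 tested collagen receptors, 0 passed by edgeR, with 2 at unadjusted p under 0.05 and a median of 0.03. Adgrg1, an adhesion G protein-coupled receptor that binds type III collagen, stood at 57.1, 48.7 and 47.1 CPM in Gas5 libraries and 44.1, 41.0 and 43.6 CPM in GFP libraries (log2 difference 0.25, edgeR adjusted p = 0.0994). Itga2, the alpha 2 integrin, stood at 4.48, 5.21 and 5.11 CPM in Gas5 libraries and 3.69, 4.46 and 3.87 CPM in GFP libraries (log2 difference 0.30, edgeR adjusted p = 0.188). Among 15 basement membrane partners, 2 laminin chains were lower, beside 3.94% of all genes, 0 genes were higher, and the median was 0.08. Lama2 stood at 36.8, 38.4 and 43.5 CPM in Gas5 libraries and 49.3, 48.9 and 49.7 CPM in GFP libraries (log2 difference -0.32, SE 0.0643, edgeR adjusted p = 0.0300). Lama4 stood at 12.1, 12.2 and 12.2 CPM in Gas5 libraries and 14.0, 15.8 and 16.5 CPM in GFP libraries (log2 difference -0.34, SE 0.0753, edgeR adjusted p = 0.0401). Neither laminin overlapped between groups, but the Lama2 adjusted p lay between 0.0582 and 0.132 when any library but Gas5 C was left out, and the Lama4 adjusted p between 0.0650 and 0.163 when any library but GFP A was left out. Of 11 fibril partners 0 passed by edgeR, with 3 at unadjusted p under 0.05 and a median of 0.06. Tgfbi, a matrix protein that binds collagen, stood at 10.3, 4.93 and 5.78 CPM in Gas5 libraries and 3.83, 3.73 and 3.5 CPM in GFP libraries, highest in Gas5 A. Its log2 difference was 0.92 (edgeR adjusted p = 0.0768), and 0.53 without Gas5 A. Dcn, the fibril proteoglycan decorin, had a log2 difference of 0.56 (edgeR adjusted p = 0.115).

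The cell types that make collagen were read from marker lists in the same libraries. The counts of each list stand beside 1.46% of all genes called higher, 3.94% called lower and 21.4% at unadjusted p under 0.05 by edgeR. For leptomeningeal fibroblasts the mean log2 CPM over 12 tested markers was 2.52, 1.85 and 2.04 in Gas5 libraries and 1.96, 2.08 and 2.20 in GFP libraries, with the highest value in Gas5 A. Their summed level was 149 to 190 CPM in Gas5 libraries and 134 to 147 CPM in GFP libraries. Apod, the largest part of that sum by group mean, stood at 98.8, 87.4 and 92.2 CPM in Gas5 libraries. In GFP libraries Apod stood at 73.6, 58.2 and 56.7 CPM. Ptgds overlapped, at 56.7, 39.7 and 44.8 CPM in Gas5 libraries and 50.1, 49.7 and 57.2 CPM in GFP libraries. Of the 12 log2 differences 6 were positive and 6 negative, with a median of 0.02. Of the 12, 1 was higher, Apod, and 0 were lower, and of the 14 listed, Igf2 was at 0 counts in every library. Gas5 A is also the library highest for Col1a2 and Col5a2, and the part of fibroblast content in those values was not tested. Endothelial markers stood at 4.20, 4.21 and 4.27 in Gas5 libraries and 4.31, 4.26 and 4.20 in GFP libraries as mean log2 CPM over 12 genes, with 0 higher and 1, Flt1, lower. Their summed level was 291 to 304 CPM in Gas5 libraries and 307 to 320 CPM in GFP libraries. Pericyte and smooth muscle markers stood at 2.63 to 2.68 in Gas5 libraries and 2.55 to 2.73 in GFP libraries with 0 of 12 called by edgeR and 1 at unadjusted p under 0.05, and none was at 0. Medium spiny neuron markers, which define the accumbens, were present at a mean log2 CPM of 7.99 to 8.26 in Gas5 libraries and 8.04 to 8.20 in GFP libraries, with 0 of 12 called by edgeR and 2 at unadjusted p under 0.05. Library Gas5 A was the lowest, with a summed level of 4880 CPM. That sum was 6200 and 6290 CPM in Gas5 B and C and 5820 to 6600 CPM in GFP libraries. Choroid plexus markers stood at a mean log2 CPM of 0.99, 0.97 and 1.14 in Gas5 libraries and 0.95, 0.82 and 0.85 in GFP libraries, without overlap. Their summed level was 27.9 to 35.9 CPM in Gas5 libraries and 24.0 to 26.4 CPM in GFP libraries. The largest part of that sum, Clic6, overlapped, at 20.1, 29.4 and 22.5 CPM in Gas5 libraries and 21.3, 21.3 and 20.1 CPM in GFP libraries. Kl did not, at 6.40, 5.59 and 4.96 CPM in Gas5 libraries and 3.56, 2.62 and 2.33 CPM in GFP libraries. Of the 6 tested 1, Kl, was higher, and Ttr, which defines that tissue, overlapped, at 0.186 to 0.568 CPM in Gas5 libraries and 0.182 to 0.720 CPM in GFP libraries. Astrocyte markers stood at 7.12, 6.91 and 7.08 in Gas5 libraries and 6.98, 6.86 and 6.81 in GFP libraries as mean log2 CPM, with overlap. Of the 9 tested, 7 had a positive and 2 a negative log2 difference. Of these 9, 4 were at unadjusted p under 0.05 by edgeR and 1, Aqp4, was called higher, and Gfap was at 0 counts in every library. The summed astrocyte level was 3370, 3470 and 4040 CPM in Gas5 libraries and 4040, 3830 and 3770 CPM in GFP libraries. The largest part of that sum was Slc1a2, with a log2 difference of -0.21. Oligodendrocyte markers stood at a mean log2 CPM of 6.22, 6.35 and 6.45 in Gas5 libraries and 6.60, 6.51 and 6.58 in GFP libraries, without overlap. All 10 of them had a negative log2 difference, 7 were at unadjusted p under 0.05 by edgeR, and 1, Aspa, was called lower. Their summed level was 1680 to 2110 CPM in Gas5 libraries and 2160 to 2340 CPM in GFP libraries. Microglia markers stood at 4.59, 4.40 and 4.48 in Gas5 libraries and 4.26, 4.15 and 4.31 in GFP libraries, also without overlap. All 8 tested had a positive log2 difference, 5 were at unadjusted p under 0.05 by edgeR and 0 passed, and of the 10 listed P2ry12 and Itgam were at 0 counts in every library. Their summed level was 281 to 305 CPM in Gas5 libraries and 244 to 273 CPM in GFP libraries. For Igf2, Gfap, P2ry12 and Itgam, between 99.9% and 100% of the span lies in other annotated genes, where reads were not counted, so these zeros are no measure of the cells.

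The cortical excitatory neuron markers were lower in Gas5 libraries, as the 3 members called lower were. The oligodendrocyte markers also stood lower there and the microglia markers higher, and their part in the members' values was not tested. Col19a1 was in the order of the marker level in both groups. It stood at 11.4, 15.8 and 17.3 CPM in Gas5 libraries, where the marker level was 2.60, 3.21 and 3.41. In GFP libraries it stood at 25.9, 31.9 and 32.1 CPM, where the marker level was 4.29, 4.72 and 4.76. Col24a1 was in that order in GFP libraries, at 3.69, 5.21 and 5.67 CPM, and not in Gas5 libraries, at 1.44, 1.26 and 1.68 CPM. Col26a1 followed the order of the marker level in neither group, at 4.54, 5.49 and 5.16 CPM in Gas5 libraries and 8.15, 10.4 and 9.57 CPM in GFP libraries. The members called higher, Col6a1 and Col6a5, followed it in neither group, and Col6a5 in GFP libraries, at 0.810, 0.622 and 0.567 CPM, ran the other way. An order over 3 libraries can easily match by chance, and these matches were not tested. With the marker level added to the edgeR model, the log2 difference was -0.86 for Col24a1, -0.28 for Col26a1, 0.08 for Col19a1, 0.16 for Col6a1 and 1.02 for Col6a5, each at adjusted p = 0.999. In that fit 0 of all 17693 genes passed, with 375 at unadjusted p under 0.05. The marker level does not overlap between the groups, so the vector and the marker level cannot be told apart in these 6 libraries.

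**Figure D4:**
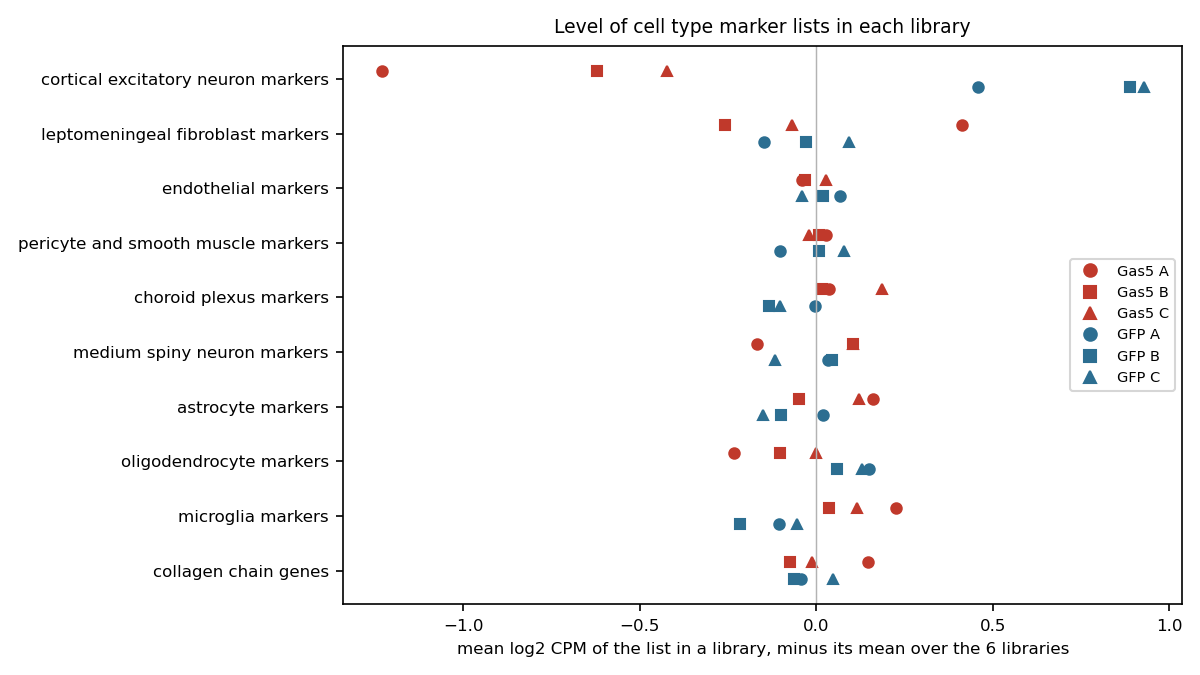
Mean log2 CPM of 9 cell type marker lists and of the collagen chain genes in each library, minus the mean over the 6 libraries, with Gas5 libraries drawn above GFP libraries in each row. The cortical excitatory neuron markers separate the groups most widely, and Gas5 A stands apart for the leptomeningeal fibroblast markers at 2.52, against 1.85 to 2.20 in the other 5 libraries.

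**Figure D5:**
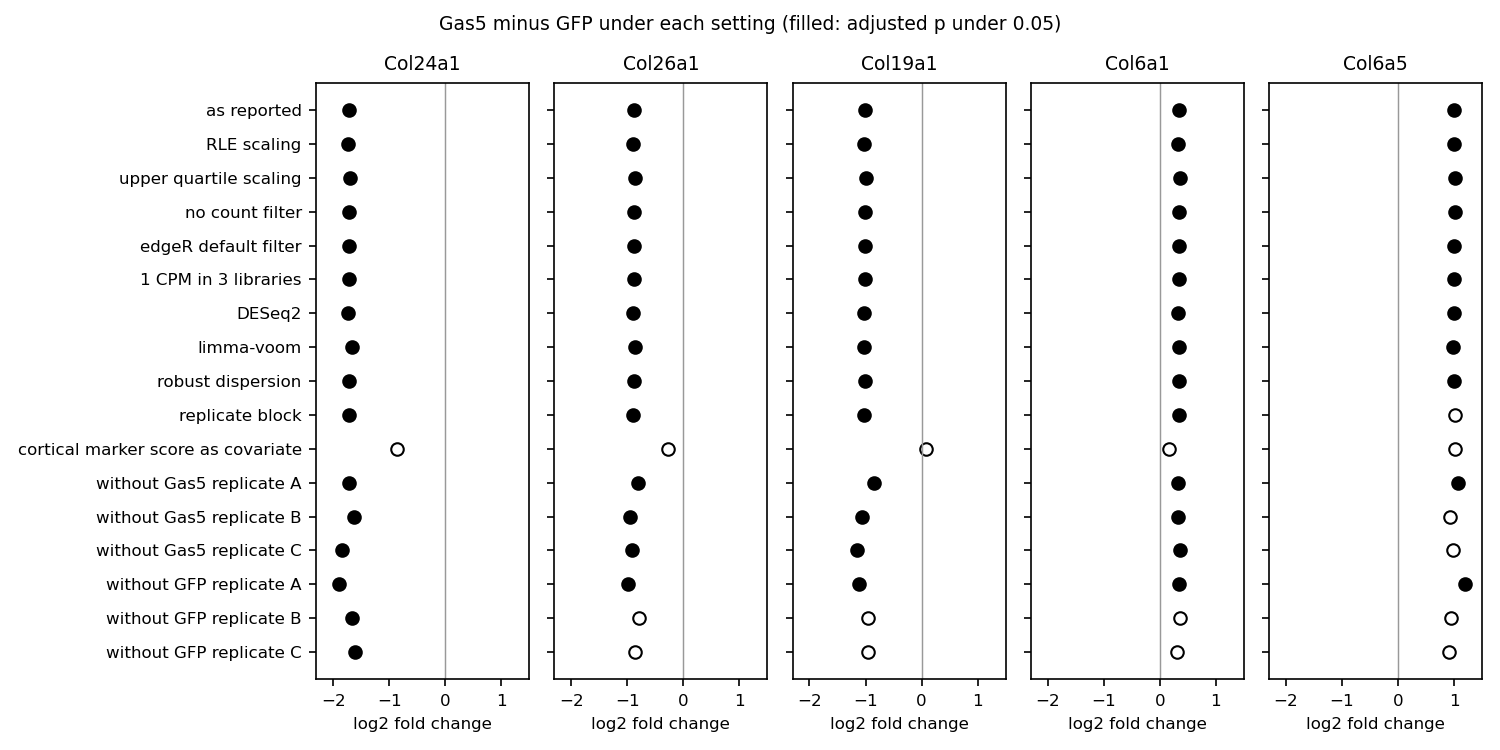
Log2 difference, Gas5 minus GFP, of the 5 members that passed, as reported (top row) and under each alternative, filled where the adjusted p is under 0.05. All 5 are filled in the top row, and of the 15 alternatives without the cortical marker level Col24a1 is filled in 15, Col19a1, Col26a1 and Col6a1 in 13 and Col6a5 in 10, and none is filled with that level in the model.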

How the data were processed

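The authors deposited raw counts per gene for each of the 6 libraries, per the file headers. They are whole numbers without normalization. The submitters' processing notes name STAR 2.7.0, featureCounts 1.5.0-p3 and build GRCm38.p6. Each gene was counted over its whole span, introns included, and reads in the overlap of annotated genes are absent, tested on the files: 16 of the 44 members share no base with another gene. Coordinates of all 44 match GENCODE M21.

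The test was that of edgeR 4.0.16 in R 4.3.3 (TMM scaling, quasi-likelihood F-test, 2-sided) over the 17693 genes with 10 or more counts in 3 or more libraries, with Benjamini-Hochberg adjustment over all of them and a threshold of 0.05. CPM is scaled by TMM, log2 CPM uses a pseudocount of 0.5, and a standard error is the absolute log2 difference divided by the square root of F. Levels per length use the counted span. Alternatives were RLE and upper quartile scaling, no filter, the edgeR default filter, 1 CPM in 3 libraries, DESeq2 1.42.0, limma-voom (limma 3.58.1), robust dispersion, a replicate block, the cortical marker level as a covariate and leaving out each library. The code of the edgeR, DESeq2 and limma-voom fits was run on simulated counts with known changes. These had the same dispersion for every gene and no outlying library, so that run does not show how the fits behave on libraries like these. Within a group, libraries differed by more than counting noise (chi-square per degree of freedom 5.13 to 25.2), so no pair looked like a library deposited again, and each was counted as a sample because the labels list it as such. Whether they are separate animals was not tested.

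The members, classes and lists were chosen with earlier results of these data known. Named are the members past the threshold, the 2 of smallest p in each class and partner list, and Gas5. Other members and markers named with values were chosen after their values were seen.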

Additional observations from a re-analysis of the deposited data

How the results depend on the processing

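The 2 members higher and 3 lower were the same 5 genes under RLE and upper quartile scaling, the edgeR default filter, a filter of 1 CPM in 3 libraries, limma-voom and robust dispersion. With no count filter 7 members were higher and 3 lower, and 656 of all genes were higher, against 259 as reported. With DESeq2 4 members were higher, Col16a1 and Col1a1 with Col6a1 and Col6a5, and 491 of all genes. With the cortical marker level as a covariate 0 members and 0 of all genes passed in either direction in edgeR, with 0 members and 375 genes at unadjusted p under 0.05, and the cause was not tested. Leaving out each library gave between 0 and 2 members higher and between 1 and 3 lower, and between 3 and 245 of all genes higher and between 88 and 608 lower. The lowest counts came without GFP B or GFP C, where Col24a1 was the member still called, and these fits have 1 library fewer.

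The reversed values under the covariate were Col19a1 0.08, Col15a1 0.15, Col8a2 0.87, P4ha1 0.08, Colgalt2 0.42, Col4a5 -0.26, Col16a1 -0.28, Col28a1 -1.0, Col8a1 -1.42, Adgrg1 -0.20 and Tgfbi -0.60. Leaving out each library, Col8a1 ranged between -0.33 (without Gas5 A) and 0.50, and Col8a2 between -0.71 and 0.27, with 0.27 without Gas5 B and 0.12 without GFP C. None of these passed the threshold in the fit that reversed it, and the cause was not tested.

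Libraries of the 2 groups share the letters A, B and C. Deviations from the group means correlated at 0.16 for A, 0.18 for B and -0.09 for C. Between unlike letters the correlations ran from -0.22 to 0.06, so A and B lay above that range and C within it. These values do not settle whether the letters pair the samples, and the labels do not say so. The reported fit therefore holds no pairing. With the letter as a replicate block 3 members were higher, Col16a1, Col3a1 and Col6a1, and 3 lower, Col6a5 had an adjusted p of 0.0517, and 507 of all genes were higher and 927 lower. At under 20 reads, as for Col9a1 and Col8a2, depth sets the limit on what can be seen.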
